A study of Mus musculus with 24 samples.

Results

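The genes described here encode parts, assembly factors and regulators of motile cilia, and they were chosen by name. Symbols starting with Cfap, Dnah, Dnai, Dnaaf, Rsph or Drc followed by a digit were taken, together with Foxj1, Deup1, Ccno, Mcidas, Ccdc39, Ccdc40, Hydin, Hoatz, Dynlrb2, Capsl, Lrrc23 and Meig1. The array measured 59 of them among 18193 genes, each through its probe set with the highest mean. Mcidas and 18 further symbols that fit the rule had no probe set assigned to them alone and were not analysed here.

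The arrays profiled upper and lower jaws of mouse embryos at embryonic day 14.5 on a C57B6 background. Mutants came from crosses of Wnt1cre;Alk5fl/+ with Alk5fl/fl mice and were told apart by a cleft palate together with a defect of the calvaria. Alk5 is the type I receptor for TGF-beta, encoded by Tgfbr1, and Wnt1-Cre deletes a floxed allele in the cranial neural crest, the source of most bone and mesenchyme of the face. The controls were littermates whose own alleles and Cre status the labels do not give. Each jaw was cut into a distal and a proximal end, and the labels call each compartment bone. The 8 groups were mutant and control distal maxilla, mutant and control proximal maxilla, mutant and control distal mandible, and mutant and control proximal mandible, with 3 arrays each. Whether replicate arrays represent different embryos, litters or pools is not in the labels, so the p-values cover the variation among these arrays alone, which may be technical.

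Motile cilia are built on a ring of doublet microtubules around a central pair. Dynein arms slide the doublets against each other, radial spokes and the nexin-dynein regulatory complex carry control signals between the central pair and the arms, and cytoplasmic assembly factors put the arms together beforehand. In the head of the embryo, motile cilia are known from multiciliated cells of the respiratory epithelium of the nose and from the lining of the brain ventricles. Multiciliated cells switch on Foxj1, the master transcription factor of motile cilia, and multiply their centrioles with the help of Deup1, a scaffold of the deuterosome, and Ccno, an atypical cyclin. The nasal lining is an epithelium of mainly ectodermal origin, outside the main lineage in which Wnt1-Cre acts.

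RMA brought the arrays to a common scale, with medians between 7.03 and 7.12 log2 units. Tgfbr1 lay between 12.20 and 12.57 log2 units in mutant arrays and between 11.92 and 12.36 in control arrays. It was called higher in mutants in the distal maxilla (0.38 ± 0.09, limma adjusted p = 0.0298) and the proximal mandible (0.33 ± 0.09, adjusted p = 0.0115) and was not called in the other regions. Where its probe sets lie relative to the floxed part is not given in the sources used here, so its level does not check the labels. Hand2, a transcription factor of the lower jaw, lay between 5.11 and 7.38 log2 units in maxilla arrays and between 9.55 and 13.09 in mandible arrays. Sp7 and Col1a1, genes of bone-forming cells, lay at 8.61 log2 units or above in every array. The third arrays of the mutant distal and mutant proximal maxilla stood apart. The distal array correlated with the mutant distal mandible arrays at a mean r of 0.976, above 0.972 with the other arrays of its own group. The proximal array correlated with the mutant proximal mandible arrays at a mean r of 0.981, above 0.969 with its own group. Counts of called genes by genotype in the maxilla, and in the jaw comparisons that include the mutant maxilla, are therefore also given without both of these arrays. In tissue pieces such as these, fewer cells of a type and less RNA per cell cannot be told apart.

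A group mean below the group's mean 40th percentile, between 6.33 and 6.47 log2 units on single arrays, was taken as near background. By this measure 37 of the 59 genes were near background in all 4 mandible groups. Of these 37 genes, 21 were near background in all 8 groups, among them the heavy chains Dnah2, Dnah5, Dnah6, Dnah9, Dnah12 and Dnah17 and the spoke genes Rsph3a, Rsph6a and Rsph14. The other 16 were above background in the control distal maxilla: Capsl, Ccno, Cfap206, Cfap221, Cfap45, Cfap52, Cfap69, Deup1, Drc1, Drc3, Dynlrb2, Foxj1, Hoatz, Meig1, Rsph1 and Rsph4a. In the mutant distal maxilla 33 genes were near background, against 21 in the control distal maxilla. In the mutant proximal maxilla the number was 35, against 25 in the control proximal maxilla. In the mandible it was 37 in mutant and 38 in control distal ends, and 40 in the proximal ends of either genotype. A further 18 genes were above background in all 8 groups, and several of these are not particular to motile cilia, such as Cfap20, Cfap36, Cfap97 and Cfap410.

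**Figure D1:**
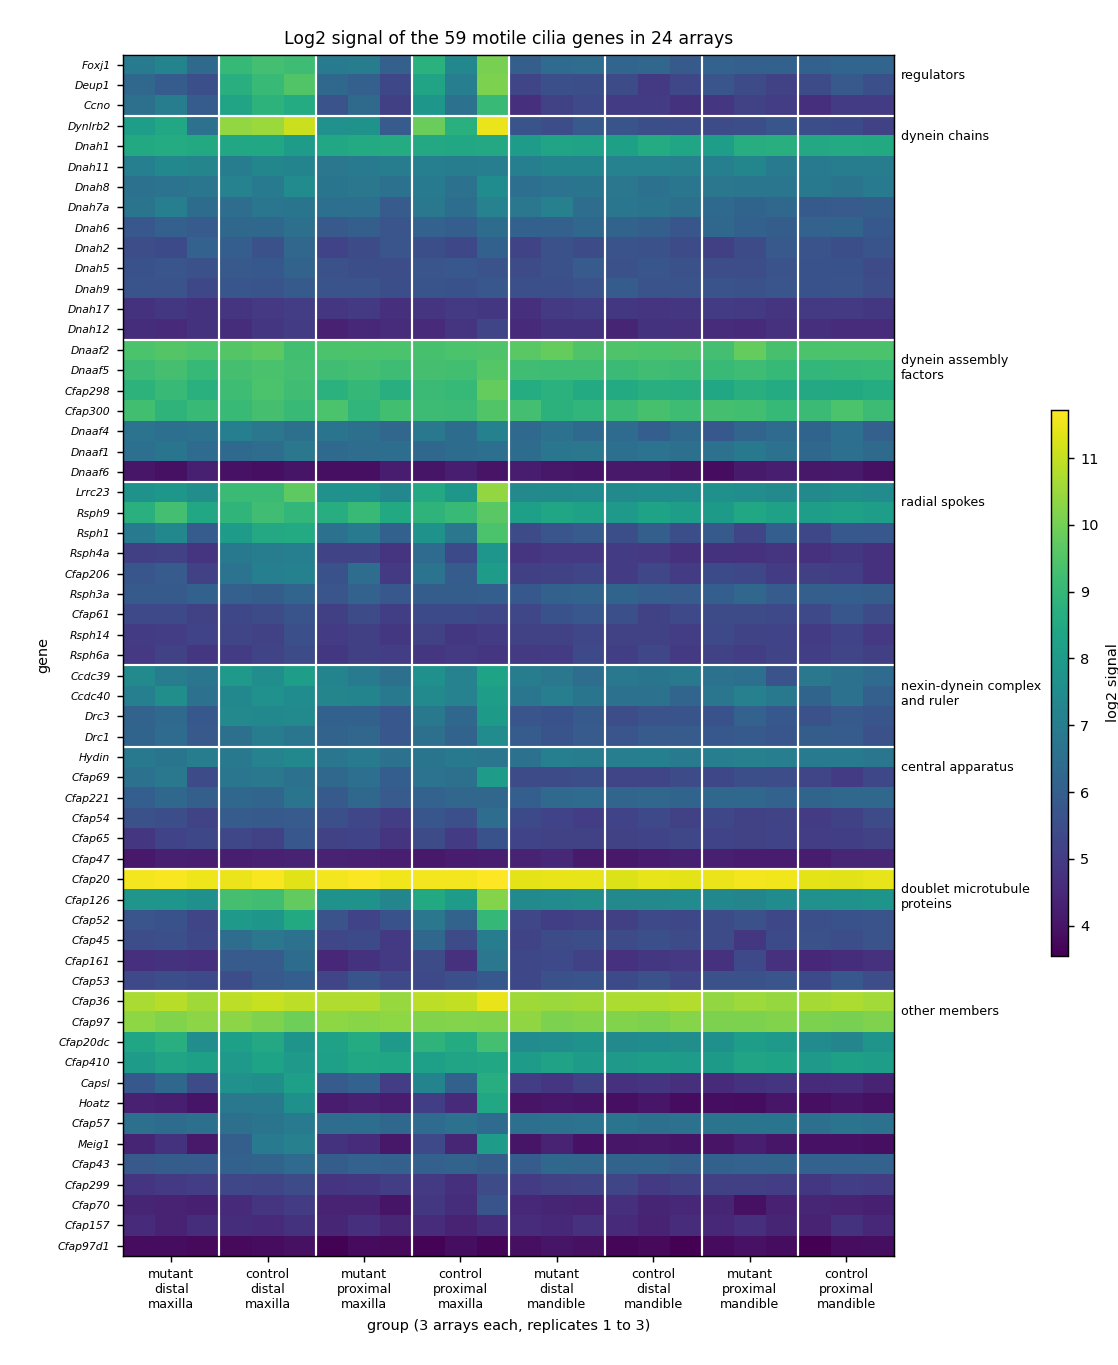
Log2 signal (colour) of each of the 59 motile cilia genes (rows, grouped by role) in each of 24 arrays (columns, 3 per group). Foxj1, Deup1, Ccno, Dynlrb2 and the genes patterned like them are bright in the 6 control maxilla arrays and dark in the 12 mandible arrays, while 18 genes such as Cfap20 are above background in all 8 groups.

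A gene was tested when at least 3 arrays exceeded their own 40th percentile, and 38 of the 59 genes met this. For 14 of the 38 only maxilla arrays exceeded it, and for 8 of them (Capsl, Cfap45, Cfap52, Deup1, Drc3, Hoatz, Meig1 and Rsph4a) only control maxilla arrays did, so these entered the test through the group in which they are high. For the comparisons between genotypes in the maxilla and between the jaws, counts are therefore also given for all 59 genes without a filter. All tests used limma on the whole table, with Benjamini-Hochberg adjustment over all 13942 genes tested, and a gene was called at an adjusted p under 0.05. Without a filter the adjustment covered all 18193 genes. The shares and medians of all genes set beside those counts are still those of the 13942 filtered genes, so the sets are unlike. The share of the 18193 genes called without a filter is not given here.

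In the distal maxilla, 13 of the 38 tested genes were lower in mutants than in controls and 0 were higher, where 1.12% of all genes tested were called lower and 1.84% higher. All 13 had mutant and control arrays that lay apart. In the proximal maxilla 15 were lower and 0 higher, where 4.79% of all genes were called lower and 5.75% higher, and arrays lay apart for 12 of the 15. These genes were picked by adjusted p, and the share of all tested genes with arrays apart was not counted. The separation is therefore no further support for the calls. Between them the 2 ends gave 17 genes, of which 11 were called in both. All 8 genes that passed the filter through control maxilla arrays alone are among the 13 distal genes. All of them but Hoatz and Meig1 are among the 15 proximal genes. Their entry into the test already favoured a lower mutant level, so the counts of tested genes are not independent of the filter. Without a filter, 14 of 59 were lower and 0 higher in each end. The median change of the 59 genes was -0.29 log2 units in the distal and -0.32 in the proximal maxilla. The medians over all genes that passed the filter were 0.04 and 0.03. A change given as a fold has both group means above background. Where the mutant mean lay near background, the log2 change is a lower limit on the size. Among called genes this held for Capsl, Cfap45, Cfap52, Deup1, Drc3 and Rsph4a in both ends, for Hoatz and Meig1 in the distal and for Ccno and Cfap206 in the proximal maxilla. For Cfap45 in the proximal maxilla the control mean of 6.24 log2 units lay near background as well.

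**Figure D2:**
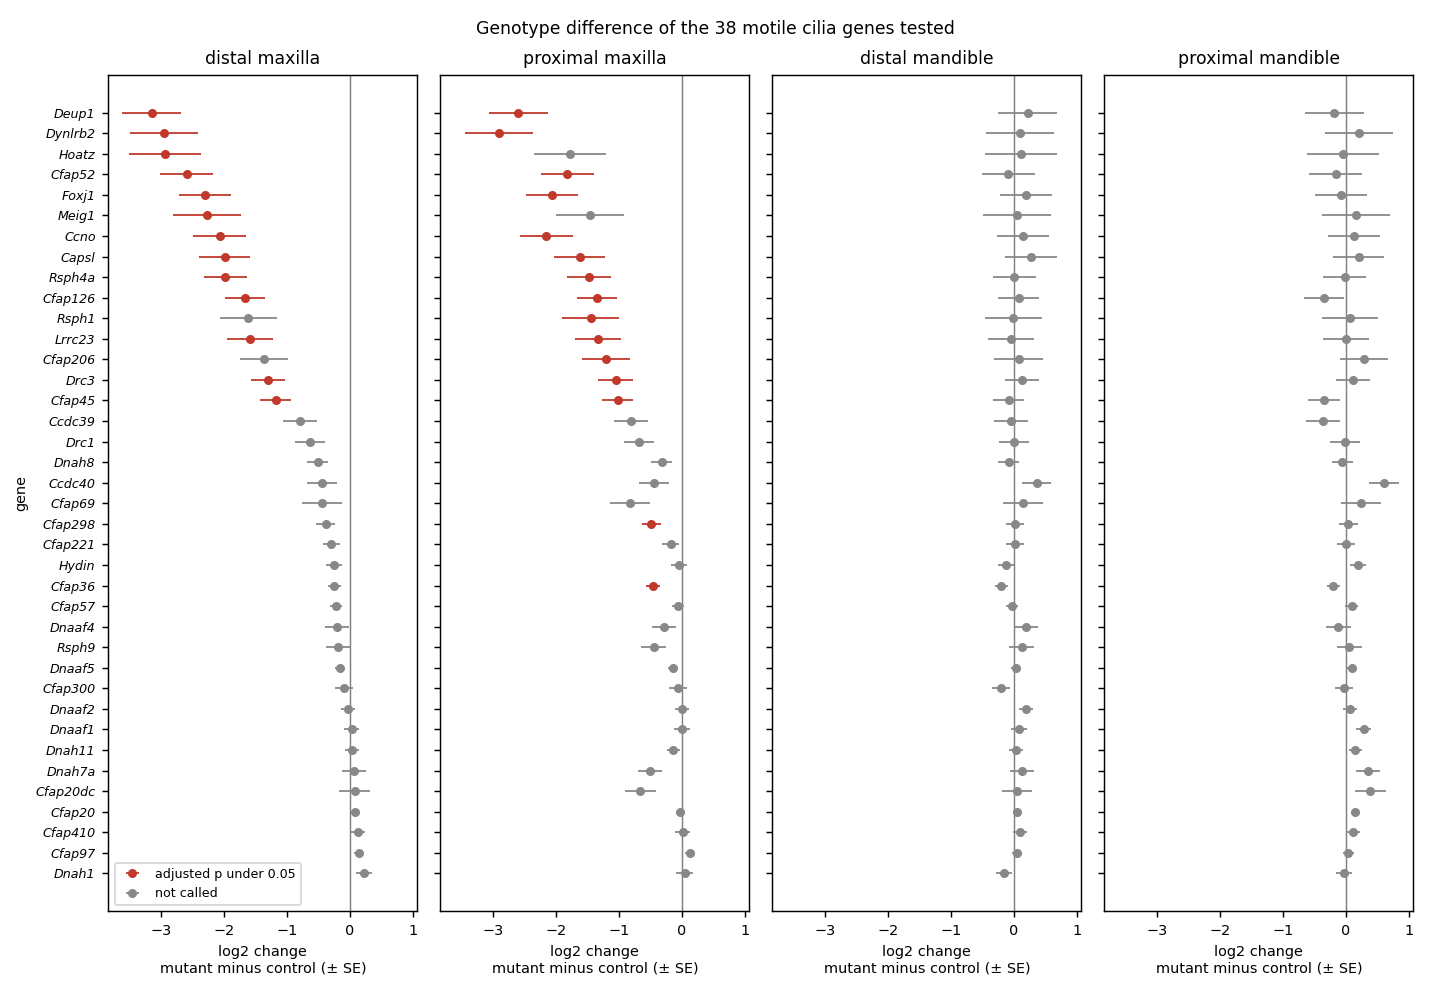
Log2 change, mutant minus control, with its standard error from limma (3 arrays per group) for the 38 tested motile cilia genes in 4 jaw regions, genes ordered by the distal maxilla. Red points have an adjusted p under 0.05: 13 in the distal maxilla and 15 in the proximal maxilla, all below 0, and 0 in either end of the mandible.

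The X-box, bound by RFX transcription factors that act with Foxj1 on cilia genes, was looked for in promoter windows from RefSeq (GRCm38.p6), 250 bases before to 50 after the annotated start. A window was found for 49 of the 59 genes and for 14 of the 17 lower in the mutant maxilla. The letters GTNNCC followed, after 3 bases of any kind, by GNAAC, on either strand, occurred in 12 of 49 (24.5%) and in 2.49% of the windows of all 27025 genes. The stricter spelling GTTGCC, 5 bases of any kind and AAC occurred in 6 of the 49 (12.2%) and in 0.67% of all genes, the part GTTGCC in 16 (32.7%) and in 14.1% of all genes, and the forkhead core TGTTTAC in 3 (6.12%) and in 4.05%. The matches of these spellings overlap, and the spelling was chosen among several after the counts were seen. Of the 14 genes lower in the mutant maxilla, 5 held the first spelling. Their sequence before the start is printed as a promoter feature that the choice of genes did not use and that most of the 49 lack, 5′ to 3′ on the strand of the gene, with the match in capitals. They are Ccno at chr13:112987552-112987801 (plus strand), Deup1 at chr9:15627847-15628096 (minus), Cfap45 at chr1:172520880-172521129 (plus), Cfap206 at chr4:34730207-34730456 (minus) and Cfap298 at chr16:90934850-90935099 (minus).
Ccno: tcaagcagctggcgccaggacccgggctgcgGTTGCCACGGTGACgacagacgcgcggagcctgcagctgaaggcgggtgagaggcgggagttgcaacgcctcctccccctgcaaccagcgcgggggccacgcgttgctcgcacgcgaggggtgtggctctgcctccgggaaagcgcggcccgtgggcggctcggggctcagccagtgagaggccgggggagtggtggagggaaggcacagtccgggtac
Deup1: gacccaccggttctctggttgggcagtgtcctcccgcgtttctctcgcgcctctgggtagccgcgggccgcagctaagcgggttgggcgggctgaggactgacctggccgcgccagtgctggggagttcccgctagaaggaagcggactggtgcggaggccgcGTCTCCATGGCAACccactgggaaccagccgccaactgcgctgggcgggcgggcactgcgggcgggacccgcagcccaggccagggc
Cfap45: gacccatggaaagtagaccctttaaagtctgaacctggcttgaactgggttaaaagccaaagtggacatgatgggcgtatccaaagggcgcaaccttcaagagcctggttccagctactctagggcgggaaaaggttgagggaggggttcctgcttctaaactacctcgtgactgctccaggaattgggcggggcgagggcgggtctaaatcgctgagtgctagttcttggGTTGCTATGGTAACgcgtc
Cfap206: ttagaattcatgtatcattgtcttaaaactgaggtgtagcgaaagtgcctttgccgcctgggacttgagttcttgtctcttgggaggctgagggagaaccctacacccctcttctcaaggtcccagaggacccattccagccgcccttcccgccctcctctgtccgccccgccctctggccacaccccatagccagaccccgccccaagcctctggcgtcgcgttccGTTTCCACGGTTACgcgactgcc
Cfap298: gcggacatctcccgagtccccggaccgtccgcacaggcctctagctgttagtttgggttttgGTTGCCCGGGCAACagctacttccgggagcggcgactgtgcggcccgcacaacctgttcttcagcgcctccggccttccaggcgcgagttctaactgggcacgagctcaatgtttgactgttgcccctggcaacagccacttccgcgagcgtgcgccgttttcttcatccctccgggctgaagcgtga
The match is on the strand of the gene in Deup1, reads the same on both strands in Cfap298 and is on the opposite strand in the other genes. It begins 219 bases before the start in Ccno, 188 in Cfap298, 87 in Deup1, 23 in Cfap206 and 19 in Cfap45. Among the other 7 genes that held the spelling, Hydin, Dnaaf2, Dnaaf5 and Cfap20dc were tested and not called lower in the mutant maxilla. Dnaaf6, Dnah17 and Cfap61 were near background in all groups and did not pass the filter.

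The regulators were lower in both ends of the mutant maxilla. Foxj1 had 6.96, 7.24 and 6.37 log2 units in mutant distal maxilla arrays, against 9.01, 9.28 and 9.18 in control distal maxilla arrays. In the proximal maxilla it had 6.96, 7.02 and 6.05 in mutants, against 8.77, 7.38 and 10.05 in controls. The highest mutant array thus lay below the lowest control array in both ends, and the 12 mandible arrays lay between 5.87 and 6.47. Foxj1 was 4.93-fold lower in the mutant distal maxilla (log2 change -2.30 ± 0.41 SE, limma adjusted p = 0.00674) and 4.18-fold lower in the mutant proximal maxilla (-2.06 ± 0.41, adjusted p = 0.00371).

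Deup1, which builds the platform on which multiciliated cells make new centrioles, had 6.29, 5.93 and 5.55 log2 units in the mutant distal maxilla, against 8.66, 9.05 and 9.51 in the control distal maxilla. Its proximal values were 6.28, 6.06 and 5.32 in mutants, against 8.31, 7.06 and 10.10 in controls. Every mutant value lay below the filter level, and the mandible arrays lay at 4.95 to 5.84. The changes were -3.15 ± 0.47 in the distal (adjusted p = 0.00189) and -2.60 ± 0.47 in the proximal maxilla (adjusted p = 0.00185), as lower limits on the size.

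Ccno, needed for the mass production of centrioles, had 6.56, 7.02 and 5.93 log2 units in the mutant distal maxilla, against 8.32, 8.82 and 8.58 in the control distal maxilla. In the proximal maxilla it had 5.64, 6.39 and 5.09 in mutants, against 7.87, 6.64 and 9.07 in controls. The genotypes did not overlap within either end, although the second control proximal array lay below the highest mutant distal array. Ccno was 4.20-fold lower in the mutant distal maxilla (limma adjusted p = 0.0137), and its change in the proximal maxilla was -2.15 ± 0.42 (adjusted p = 0.00308).

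**Figure D3:**
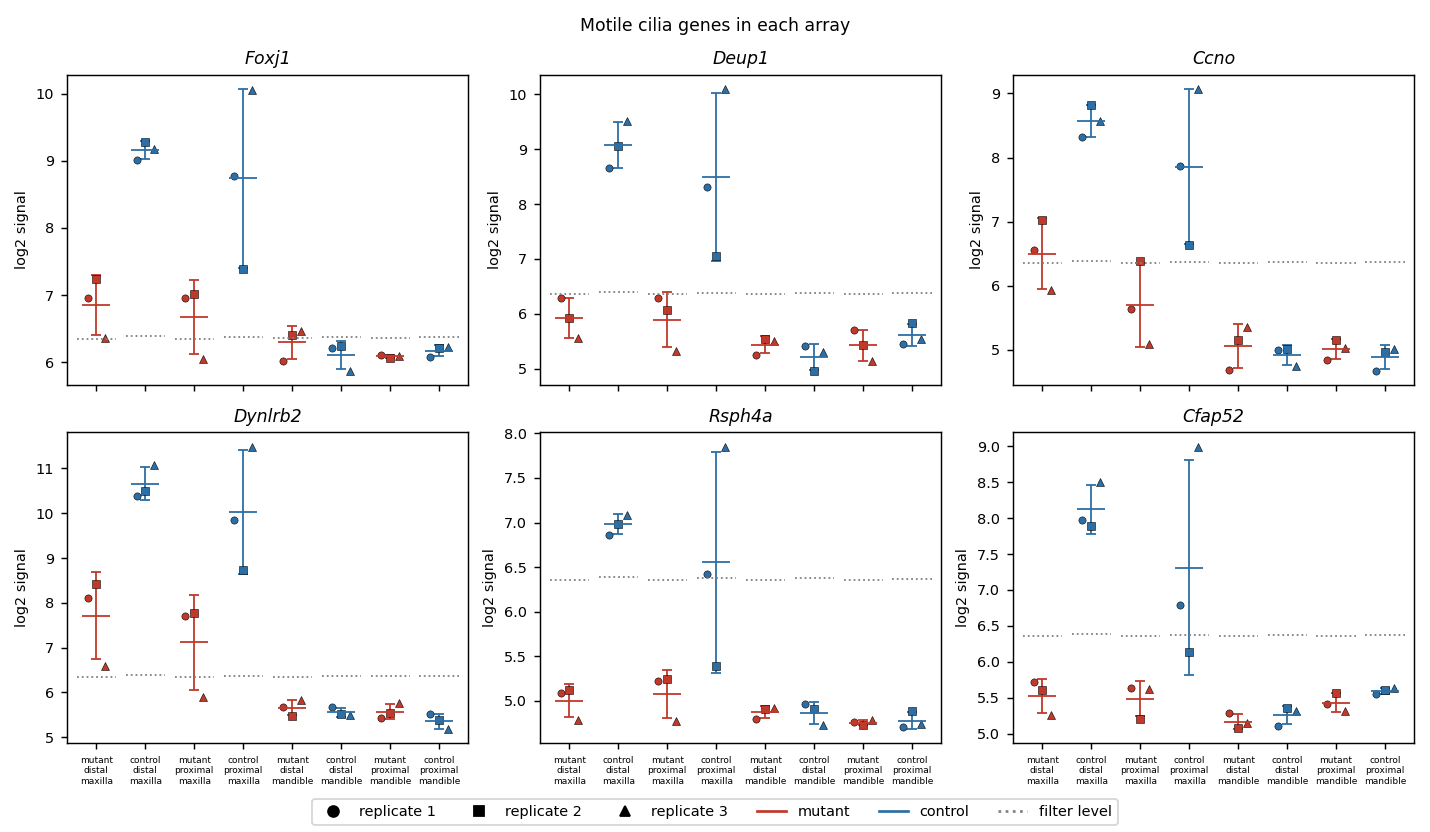
Log2 signal of Foxj1, Deup1, Ccno, Dynlrb2, Rsph4a and Cfap52 in every array of the 8 groups, with group mean and SD (bars, n = 3) and the filter level (dotted). Mutant maxilla arrays lie below the control maxilla arrays of the same end for all 6 genes, the third control proximal maxilla array is the highest of its group and the second the lowest, and all mandible groups are near background.

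The dynein chains divided. Dynlrb2, a light chain of the roadblock family used by dyneins, was among the members furthest from background in control maxilla. It had 8.11, 8.41 and 6.60 log2 units in the mutant distal maxilla, against 10.39, 10.51 and 11.09 in the control distal maxilla. Its proximal values were 7.70, 7.76 and 5.90 in mutants, against 9.85, 8.74 and 11.49 in controls. Mutant arrays were below control arrays in both ends, and only the third mutant proximal array came close to the mandible range of 5.18 to 5.84. The mutant level was 7.74-fold lower in the distal (log2 change -2.95 ± 0.54, limma adjusted p = 0.00817) and 7.50-fold lower in the proximal maxilla (-2.91 ± 0.54, adjusted p = 0.00236). Of the 10 heavy chain genes on the array, the motors of the dynein arms, 6 were near background in every group. Dnah1, Dnah11, Dnah8 and Dnah7a were tested, and none was called by genotype in any of the 4 regions. Dnah8, an outer arm heavy chain best known from sperm, changed by -0.51 ± 0.16 in the distal maxilla (adjusted p = 0.0945). Dnah1 had 8.52, 8.59 and 8.51 log2 units in the mutant distal maxilla, against 8.45, 8.46 and 8.04 in the control distal maxilla, and the change of 0.22 ± 0.13 did not pass the test (adjusted p = 0.327). Dnah7a has close relatives in the mouse genome, and its probe set may not separate them.

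Among dynein assembly factors, 6 of 7 were tested. The distal maxilla gave 0 calls and the proximal maxilla 1. Cfap298 averaged 8.83 ± 0.16 log2 units in the mutant and 9.31 ± 0.42 in the control proximal maxilla (SD, n = 3 each), a 1.40-fold lower level in mutants (limma adjusted p = 0.0425). Dnaaf1, Dnaaf2, Dnaaf4, Dnaaf5 and Cfap300 were not called by genotype in either end. The probe sets of Dnaaf1 disagreed. The set with the highest mean changed by 0.03 log2 units in the distal maxilla, while the other changed by -0.93 (limma adjusted p = 0.0407, with every probe set as its own feature). That other set was also lower in the mutant proximal maxilla (-0.77, adjusted p = 0.0445), higher in the maxilla of controls than in the mandible (0.82, adjusted p = 0.000601) and called for the effect between jaws (-0.89, adjusted p = 0.0282), so the calls of Dnaaf1 below depend on the set used. For Cfap298, the second of 4 probe sets changed by -0.66 in the distal maxilla (adjusted p = 0.0197), while the remaining pair changed by -0.09 and -0.04.

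Radial spoke genes were lower for 2 of 5 tested in the distal and 4 of 5 in the proximal maxilla, with 9 on the array, and the proximal calls of Rsph1 and Cfap206 were lost without a filter (adjusted p = 0.0533 and 0.0567) and in most other settings. Rsph4a, a protein of the spoke head, had 5.09, 5.13 and 4.78 log2 units in the mutant distal maxilla, against 6.86, 6.98 and 7.09 in the control distal maxilla. In the proximal maxilla it had 5.23, 5.24 and 4.77 in mutants, against 6.42, 5.39 and 7.85 in controls. The mutant arrays were all near background and below every control array (distal -1.98 ± 0.35, limma adjusted p = 0.00616, proximal -1.47 ± 0.35, adjusted p = 0.0107). Lrrc23, also a spoke protein, averaged 7.73 ± 0.14 log2 units in the mutant and 9.32 ± 0.32 in the control distal maxilla, 3.02-fold lower in mutants (adjusted p = 0.0267). In the proximal maxilla it averaged 7.59 ± 0.18 in mutants and 8.92 ± 1.31 in controls, 2.52-fold lower in mutants (adjusted p = 0.0257). Rsph1 and Cfap206 lay on either side of the threshold in the 2 ends. Rsph1 changed by -1.62 ± 0.45 in the distal (adjusted p = 0.0565) and -1.45 ± 0.45 in the proximal maxilla (adjusted p = 0.0455). Cfap206 changed by -1.37 ± 0.38 (adjusted p = 0.0572) and -1.21 ± 0.38 (adjusted p = 0.0499). Rsph9, in the spoke head as well, was above background in all 8 groups and averaged 8.84 ± 0.42 in the mutant and 9.02 ± 0.16 in the control distal maxilla, which did not pass the test (adjusted p = 0.605).

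All 4 genes of the nexin-dynein regulatory complex and of the ruler that sets axonemal spacing were tested, and 1 was called in each end. Drc3, a subunit of the complex, had 6.15, 6.34 and 5.82 log2 units in the mutant distal maxilla, against 7.41, 7.36 and 7.46 in the control distal maxilla. Its proximal values were 6.10, 6.11 and 5.78 in mutants, against 6.85, 6.28 and 8.02 in controls. The genotypes lay apart within each end (distal -1.31 ± 0.27, limma adjusted p = 0.0153, proximal -1.05 ± 0.27, adjusted p = 0.0179). A second probe set of Drc3 stayed near background, and the mean of both sets changed by -0.78 in the distal (adjusted p = 0.013) and -0.59 in the proximal maxilla (adjusted p = 0.0213). The ruler genes Ccdc39 and Ccdc40 were not called. Ccdc39 changed by -0.80 ± 0.27 in the distal (adjusted p = 0.112) and -0.81 ± 0.27 in the proximal maxilla (adjusted p = 0.0632), and Ccdc40 by -0.44 ± 0.24 in both ends.

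Of 6 doublet microtubule proteins, 3 of the 4 tested were lower in each end: Cfap52, Cfap45 and Cfap126, which line the doublets from inside. Cfap52 had 5.72, 5.61 and 5.26 log2 units in the mutant distal maxilla, against 7.97, 7.89 and 8.51 in the control distal maxilla. In the proximal maxilla it had 5.63, 5.21 and 5.63 in mutants, against 6.79, 6.14 and 9.0 in controls. All mutant arrays lay near the mandible range of 5.08 to 5.64 (distal -2.59 ± 0.42, limma adjusted p = 0.00342, proximal -1.82 ± 0.42, adjusted p = 0.00954). Cfap126 was 3.18-fold lower in the mutant distal maxilla, at 7.77 ± 0.10 log2 units against 9.44 ± 0.28 in controls (adjusted p = 0.0113), and 2.55-fold lower in the mutant proximal maxilla (adjusted p = 0.0114). The fourth, Cfap20, a protein at the junction of the doublet tubules that is also used elsewhere, changed by 0.09 in the distal and -0.03 in the proximal maxilla and was not called. The 6 central apparatus genes gave 0 calls by genotype in either end. Hydin averaged 6.87 ± 0.14 in the mutant and 7.13 ± 0.25 in the control distal maxilla (adjusted p = 0.258).

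The remaining genes included Hoatz and Meig1, both known from ciliated cells or sperm of the mouse. Hoatz had 4.29, 4.23 and 4.01 log2 units in the mutant distal maxilla, against 6.81, 6.87 and 7.66 in the control distal maxilla. Its proximal values were 4.22, 4.30 and 4.21 in mutants, against 5.08, 4.57 and 8.43 in controls. The distal change of -2.93 ± 0.57 was called (limma adjusted p = 0.012), and the proximal change of -1.78 ± 0.57 was not (adjusted p = 0.0524), where the level in controls rested on the third array. Meig1 showed the same order of arrays, with -2.27 ± 0.54 in the distal (adjusted p = 0.032) and -1.46 ± 0.54 in the proximal maxilla (adjusted p = 0.0901). Capsl, a protein with calcium-binding motifs, changed by -1.99 ± 0.41 in the distal (adjusted p = 0.015) and -1.62 ± 0.41 in the proximal maxilla (adjusted p = 0.0155), where its second control array lay among the mutant arrays. Cfap36 was 1.37-fold lower in the mutant proximal maxilla, at 10.66 ± 0.17 log2 units against 11.12 ± 0.29 in controls (adjusted p = 0.0113).

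The call of single genes depended on single arrays. Among the 17 genes lower in either end, the third array was the lowest of the mutant distal maxilla for 17 and of the mutant proximal maxilla for 16. The third array was the highest of the control proximal maxilla for 17, and the second the lowest for 16. Without the third mutant maxilla array of both ends, 13 genes were called in the distal and 5 in the proximal maxilla, all of them among those called with it. The 10 proximal genes lost were Capsl, Cfap126, Cfap206, Cfap298, Cfap36, Cfap45, Drc3, Lrrc23, Rsph1 and Rsph4a, at adjusted p between 0.0551 for Rsph4a and 0.233 for Cfap206. The 5 that stayed were Cfap52 (-1.89 ± 0.48, adjusted p = 0.0266), Foxj1 (-1.75 ± 0.43, limma adjusted p = 0.0219), Deup1 (-2.32 ± 0.51, adjusted p = 0.0118), Ccno (-1.84 ± 0.43, adjusted p = 0.0167) and Dynlrb2 (-2.30 ± 0.45, adjusted p = 0.00615). The distal count was 5 without the first mutant or without the third control distal array, and Foxj1, Deup1, Dynlrb2, Cfap52 and Rsph4a made up the 5 each time. The proximal count was 5 without the third mutant, 8 without the third control and 21 without the second control proximal array. The change of all 15 proximal genes was smallest without the third control proximal array, and for 11 it was then over 1.5 times smaller. It was -0.59 for Lrrc23 (adjusted p = 0.048), -0.71 for Cfap126 (adjusted p = 0.0127), -0.82 for Rsph4a (adjusted p = 0.0278) and -0.98 for Cfap52 (adjusted p = 0.00835), and -0.57 for Drc3, which was then not called (adjusted p = 0.0761). The others of the 11 were Capsl (-0.95), Rsph1 (-0.74), Cfap45 (-0.63), Cfap206 (-0.63), Cfap36 (-0.29) and Cfap298 (-0.24), none of them then called. In the distal maxilla none of the 13 changes moved by over 1.5 times when 1 array was left out. With only the 6 proximal maxilla arrays in the fit, 0 of the 15 were called, at adjusted p between 0.113 and 0.289. For this fit and all fits with arrays left out, here and below, the share of all genes called is not given. A shift of the whole table can therefore not be told from one of these genes.

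In the mandible 0 of the 38 tested genes were called in the distal end, where 16% of all genes tested were called in either direction (8.02% higher and 7.98% lower), and 0 in the proximal end, where 19.9% were (9.56% higher and 10.4% lower). At an unadjusted p under 0.05, limma gave 0 genes in the distal and 3 in the proximal mandible. The largest changes were 0.36 log2 units in the distal and 0.61 in the proximal mandible, both of Ccdc40 (adjusted p = 0.0777 in the proximal end). Of the 38 genes, 16 were near background in all 4 mandible groups, where a fall may have been missed or measured only in part. The 18 genes above background in all 8 groups include 2 of those lower in the distal and 4 of those lower in the proximal maxilla.

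The maxilla differed from the mandible in controls for most tested genes. In controls 28 of 38 were higher in the maxilla and 0 lower, where 18.1% of all genes tested were called higher and 16.7% lower. Since 14 of the 38 had passed the filter through maxilla arrays alone, the count without a filter bears on all members: 32 of 59 were higher and 0 lower, and their median was 0.27 log2 units, beside -0.01 over all genes tested. The mean over both ends was higher by 4.89 ± 0.38 log2 units for Dynlrb2, 3.37 ± 0.33 for Deup1, 3.31 ± 0.30 for Ccno, 2.96 ± 0.29 for Capsl and 2.81 ± 0.29 for Foxj1, each with a limma adjusted p of 7.04e-07 or less. The mandible level was background for these, so the changes are lower limits. Genes with a mandible level above background were called too. Rsph9 was 1.94-fold, Lrrc23 3.04-fold and Cfap126 3.04-fold higher in the maxilla of controls. The 10 not called were Dnah1, Dnah11, Hydin, Dnaaf1, Dnaaf2, Cfap57, Cfap97, Cfap221, Cfap300 and Cfap410. A higher level in the control maxilla was not particular to motile cilia. It held for 21 of 35 tested genes of the primary cilium and intraflagellar transport (1 lower) and 11 of 16 other regulators of multiciliated cells (0 lower). It also held for 12 of 15 olfactory (1 lower) and 7 of 10 neuronal genes (0 lower). Oral and skin epithelium had 1 of 13 higher and 3 lower.

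In mutants 6 of 38 genes were higher in the maxilla than in the mandible and 0 lower, where 12.4% of all genes tested were called higher and 5.74% lower. Without a filter the counts were 6 of 59 and 0, with a median of 0.06. They were Dynlrb2 (1.80 ± 0.38 log2 units, limma adjusted p = 0.00278), Ccno (1.07 ± 0.30, adjusted p = 0.0161), Rsph1 (0.94 ± 0.32, adjusted p = 0.0461), Capsl (0.91 ± 0.29, adjusted p = 0.0322), Cfap69 (0.82 ± 0.22, adjusted p = 0.0147) and Rsph9 (0.55 ± 0.14, adjusted p = 0.0101). Foxj1 and Deup1 did not pass, at 0.57 ± 0.29 (adjusted p = 0.183) and 0.48 ± 0.33 (adjusted p = 0.33). Without the third array of both mutant maxilla ends 10 were called, among them Foxj1 at 0.85 ± 0.30 (adjusted p = 0.0493). Same-numbered arrays of the 2 jaws deviated together in mutants, and with the replicate number as a random block 10 genes were called, 9 higher and Cfap57 lower, while a fixed replicate block gave 7.

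Whether the genotype effect differed between the jaws was tested directly. It was called for 16 of the 38 genes, in each case lower in the maxilla, where 2.45% of all genes tested were called in that direction and 4.31% in the other. The 16 include all 8 genes that passed the filter through control maxilla arrays alone. Without a filter it was 18 of 59, with a median of -0.33 log2 units, beside 0.00 over all genes tested. The difference was -3.09 ± 0.54 log2 units for Dynlrb2 (limma adjusted p = 0.00211), -2.89 ± 0.47 for Deup1 (adjusted p = 0.00106), -2.25 ± 0.42 for Ccno (adjusted p = 0.00311) and -2.24 ± 0.41 for Foxj1 (adjusted p = 0.0029). Without the third mutant maxilla array of both ends 10 remained called, these 4 among them. For 13 of the 16 the mandible lay near background in all its groups, so a fall there may have been missed or measured only in part.

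The ends of the control maxilla did not differ for any tested gene (0 of 38 called, 4 at an unadjusted p under 0.05), where 10.9% of all genes were called in either direction. Leaving out the third control proximal array changed this to 12 genes higher in the distal end, with Foxj1 at 1.08 ± 0.32 log2 units (limma adjusted p = 0.0397). The share of all genes called in that fit is not given here, and the 10.9% belongs to the fit of all arrays. The genotype effect was not called as different between the ends for any of the 38 genes (2 at an unadjusted p under 0.05, 0.201% of all genes called), and Foxj1 differed by -0.24 ± 0.58. Without the same array 3 genes were called, Hoatz, Cfap52 and Meig1, each with the larger fall in the distal end.

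The mean of Foxj1, Deup1 and Dynlrb2 summarised the order of arrays. It was 7.12, 7.19 and 6.17 log2 units in the mutant distal maxilla, against 9.36, 9.61 and 9.93 in the control distal maxilla. It was 6.98, 6.95 and 5.76 in the mutant proximal maxilla, against 8.98, 7.73 and 10.55 in the control proximal maxilla. The spread of the control proximal maxilla (SD 1.41, n = 3) was the widest of the 8 groups. Across the 12 maxilla arrays, Capsl, Rsph4a, Drc3 and Cfap45 correlated with this mean at Pearson r of 0.986, 0.982, 0.981 and 0.977, while Dnah11, Dnaaf2 and Dnaaf1 correlated at 0.21, 0.17 and 0.12, and Cfap20, Cfap410, Dnah1 and Cfap97 at -0.04, -0.25, -0.53 and -0.67. The arrays share the genotype difference. After the group means were removed, r was 0.975 for Capsl and 0.949 for Rsph4a. Outside the 59 genes, Ubxn10 (r = 0.993), Pih1d2 (0.977), Ccdc103 (0.973) and Upk3a (0.971) were the most alike over the same 12 arrays, followed by Lrrc26, Tmem107, Ppil6, Lrrc34, Bbof1 and Tal2 (0.948).

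Genes of motile cilia outside the 59 were measured as well. Of 29 tested genes of motile cilium parts (45 measured), 5 were lower in the mutant distal maxilla and 9 in the mutant proximal maxilla, with 0 higher. Of all genes tested, 1.12% were called lower in the distal and 4.79% in the proximal maxilla. The median changes of the 29 were -0.53 and -0.50 log2 units. Pifo, a ciliary protein, had 7.27, 7.39 and 5.89 log2 units in the mutant distal maxilla, against 8.53, 9.13 and 9.37 in the control distal maxilla (limma adjusted p = 0.0322). Tekt1, a filament protein inside doublets, had 7.15, 7.48 and 6.45 in mutants, against 8.55, 8.32 and 8.76 in controls (adjusted p = 0.0304). Both had no overlap between the genotypes. With the third mutant maxilla array of both ends left out, 4 were lower in the distal and 1 (Efcab1) in the proximal maxilla. In the mutant mandible 2 were higher and 1 lower in the distal end (Stk36 0.58, Nme7 0.29 and Tppp3 -1.07) and 3 higher in the proximal end (Tekt2 0.70, Efcab1 0.48 and Nme7 0.33). The counts of higher genes lie near the shares of all genes tested, 8.02% in the distal and 9.56% in the proximal mandible. Of all genes, 7.98% were called lower in the distal mandible. In controls 22 of the 29 were higher in the maxilla than in the mandible and 0 lower, in mutants 2 and 0, and the effect between jaws was called for 10, all lower in the maxilla. Of all genes tested, 18.1% were higher in the maxilla in controls and 12.4% in mutants, and 2.45% were called lower for the effect between jaws. Without the third mutant maxilla arrays, 7 of the 29 were higher in the mutant maxilla than in the mandible. The effect between jaws was then called for 5, all lower in the maxilla.

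Regulators of multiciliated cells outside the 59 gave 1 lower gene of 16 tested in the distal maxilla and 6 in the proximal maxilla, with 0 higher. The shares of all genes called lower were 1.12% and 4.79%. Myb, which acts early in multiciliated cells and also in dividing cells, changed by -1.22 ± 0.32 log2 units in the distal maxilla (limma adjusted p = 0.0428). The proximal genes included Fank1 (-0.63 ± 0.15) and the centriole genes Cep152 (-0.81 ± 0.19), Plk4 (-0.49 ± 0.12) and Stil (-0.72 ± 0.19), which other dividing cells also use. When the third mutant maxilla arrays were left out, 0 were lower and Ccp110 was higher in the distal maxilla (1.14 ± 0.25, adjusted p = 0.0124), and in the proximal maxilla Cep152 was the 1 gene called (-0.59 ± 0.16, adjusted p = 0.0354). In the distal mandible Trp73 (0.63 ± 0.21) and Rfx3 (0.57 ± 0.19) were higher in mutants, and in the proximal mandible 0 of 16 were called. Of all genes tested, 8.02% were called higher in the distal mandible and 19.9% in either direction in the proximal mandible. The genes of the primary cilium and intraflagellar transport, which motile and sensory cilia share, gave 0 calls of 35 tested in the distal maxilla and 2 in the proximal maxilla, both higher in mutants, Ttc21b (0.34 ± 0.07) and Kifap3 (0.28 ± 0.08), a share near the 5.75% of all genes called higher there. Their median changes were 0.09 and -0.06. Without the third mutant maxilla arrays, 3 of the 35 were higher in the distal and 1 in the proximal maxilla, with 0 lower.

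Markers of other cell types were followed in the same arrays. Among 13 tested genes of airway and nasal secretory epithelium, 3 were lower in each end of the mutant maxilla and 0 higher. Beside these counts, 1.12% of all genes tested were called lower in the distal and 4.79% in the proximal maxilla. In controls 6 of the 13 were higher in the maxilla than in the mandible and 0 lower. In mutants 6 were higher and 1 lower. The shares of all genes called higher were 18.1% in controls and 12.4% in mutants. Bpifa1, a secreted protein of nasal and airway epithelium, had 9.22, 10.40 and 8.15 log2 units in the mutant proximal maxilla, against 12.80, 11.32 and 12.99 in the control proximal maxilla, with no overlap (-3.11 ± 0.58, limma adjusted p = 0.00236). Without the third mutant maxilla arrays it changed by -2.55 ± 0.41 there (adjusted p = 0.0014), and the list gave 3 lower genes in the distal and 2 in the proximal maxilla. In the main fit Aldh1a1, an enzyme of retinoic acid synthesis, changed by -2.18 ± 0.47 in the proximal maxilla (adjusted p = 0.00599), and Foxa2 by -0.44 ± 0.12. Without the third mutant maxilla arrays Aldh1a1 changed by -1.86 ± 0.45 (limma adjusted p = 0.0198). Foxa2 then changed by -0.39 ± 0.13 and was not called (adjusted p = 0.103). The mean over the 19 measured genes of this list lay between 6.71 and 7.40 log2 units in the mutant distal maxilla, against 7.78 to 8.0 in the control distal maxilla. It lay between 6.42 and 7.12 in the mutant proximal maxilla, against 7.01 to 7.66 in the control proximal maxilla.

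Markers of simple epithelium gave 0 calls of 18 tested by genotype in either end of the maxilla. Their medians were -0.31 log2 units in the distal and -0.28 in the proximal maxilla, and their mean lay between 9.80 and 10.32 in the mutant distal maxilla, against 10.19 to 10.45 in the control distal maxilla. In the jaw comparisons the calls of this list had the same direction as those of the motile cilia genes, but the changes within each jaw differed. All 18 were higher in the maxilla than in the mandible in controls and 8 in mutants, with 0 lower in either, and the genotype effect between jaws was called for 7, all lower in the maxilla. They included Esrp2 (-1.14 ± 0.20), Cldn4 (-1.13 ± 0.16), Esrp1 (-1.05 ± 0.17) and Spint1 (-0.79 ± 0.15). Of all genes tested, 18.1% were higher in the maxilla in controls and 12.4% in mutants, and 2.45% were called lower for the effect between jaws. In the mutant mandible 4 of the 18 were higher in the distal and 7 in the proximal end, with 0 lower, beside 8.02% and 9.56% of all genes called higher. Their medians there were 0.32 and 0.61 log2 units. The 38 tested motile cilia genes had medians of 0.05 and 0.06 and 0 calls in the mandible. The effect between jaws was called for 6 without the third mutant maxilla arrays, and the distal maxilla then gave 1 higher gene and 1 lower (Krt19). In mutants 10 of the 18 were then higher in the maxilla than in the mandible and 0 lower. Oral and skin epithelium went the other way in the proximal maxilla. There 10 of 13 tested genes were higher in mutants, beside 5.75% of all genes tested, and 0 lower. The distal maxilla gave 0 calls. These counts were 6 higher in the proximal and 3 lower in the distal maxilla without the third mutant arrays. Olfactory epithelium gave 0 calls of 15 in the distal and 1 lower in the proximal maxilla (Gnal, -0.88 ± 0.25), choroid plexus and ependyma 0 and 1 lower of 6 (Aqp1, -1.19 ± 0.23), and neurons 0 of 10 in both. Without the third mutant arrays the distal maxilla gave 3 higher genes for neurons, 2 for olfactory epithelium and 1 for choroid plexus and ependyma, with 0 lower. The proximal counts of these lists stayed at 0 for neurons, 1 lower for olfactory epithelium and 1 lower for choroid plexus and ependyma. The median of the choroid plexus and ependyma list was -0.16 log2 units in the distal and -1.27 in the proximal maxilla, where Clic6 (-1.34 ± 0.45), Otx2 (-2.37 ± 0.95) and Aqp4 (-1.47 ± 0.68) did not pass the test. The proximal median was -0.54 without the third mutant arrays. The medians of olfactory epithelium and neurons were 0.04 and 0.39 in the distal and -0.65 and -0.67 in the proximal maxilla. Without the third mutant arrays these medians were 0.36 and 1.07 in the distal and -0.33 and -0.19 in the proximal maxilla. The 38 tested motile cilia genes had medians of -0.44 and -0.59. The third mutant maxilla arrays were the lowest of their groups in the secretory mean as well. The part of these other cell types, and of how the pieces were cut, in the lower level of the motile cilia genes was not tested.

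**Figure D4:**
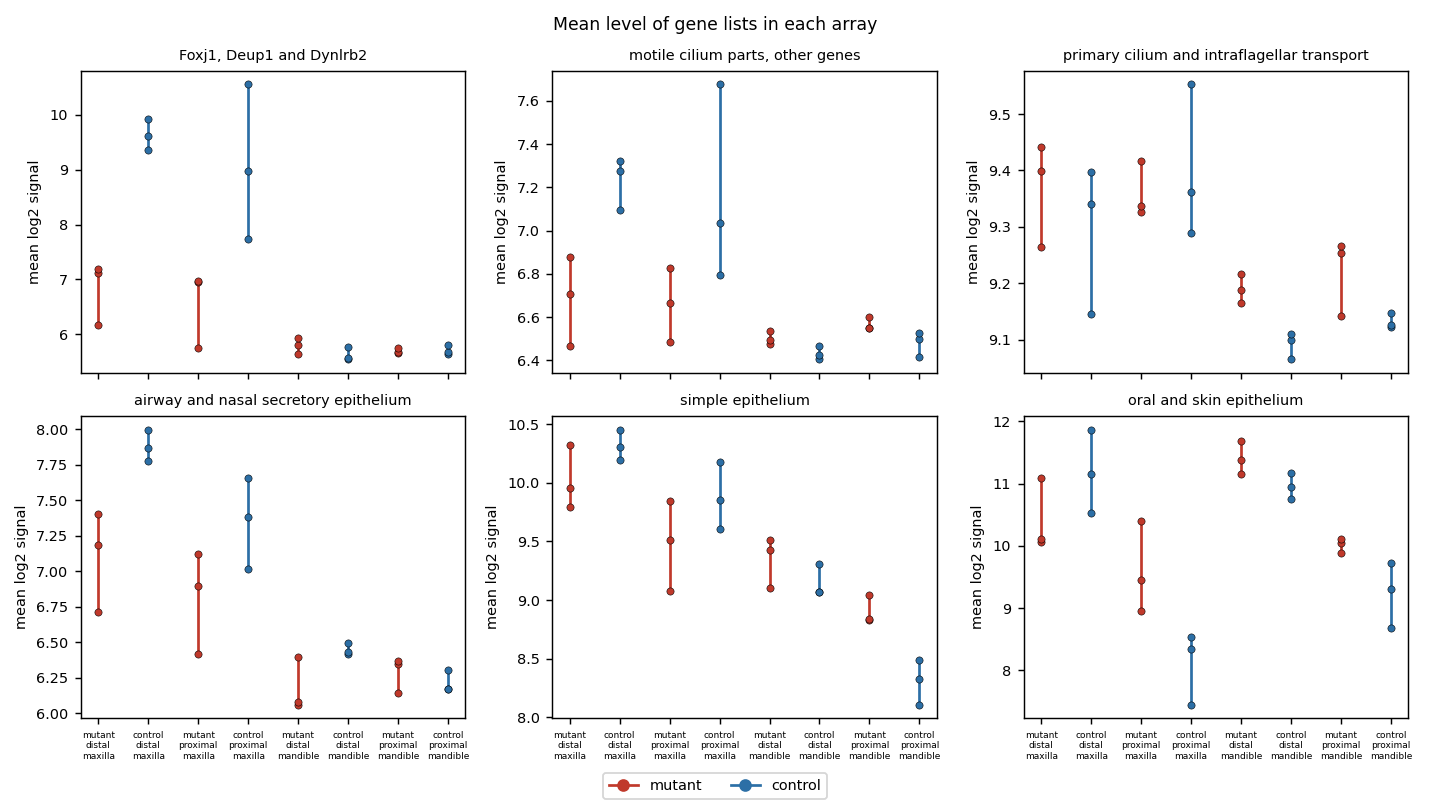
Mean log2 signal over each gene list in every array (points, line from lowest to highest) for the 8 groups. The means of Foxj1, Deup1 and Dynlrb2, of other motile cilium genes and of nasal secretory genes are lower in mutant than in control distal maxilla arrays, whereas those of the primary cilium overlap between genotypes in the maxilla.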

How the data were processed

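Single-colour arrays were hybridised with biotin-labelled cRNA from total RNA, per the labels' protocols. The deposited values are log2 signals made by the authors with RMA, per the submitters' processing notes, with no version given. The base was read from the value range of 3.29 to 14.9. No detection calls were used, so the 40th percentile served as background, and the number of arrays limits the precision. Of 45101 probe sets, 34945 had 1 gene symbol, 932 several and 9160 none, and 64 were controls. RefSeq (GRCm38.p6) matched 34741 by identifier and changed 0 symbols. Of the 59 genes, 24 had several probe sets.

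All 24 arrays entered one linear model of group means (limma 3.58.1 with a mean-variance trend, under R 4.3.3), which was checked on simulated data. Two-sided moderated tests were adjusted by Benjamini-Hochberg in each of 9 comparisons. Errors are standard errors of the fit, or SD where stated. Replicate numbers were taken to pair arrays where every pair's deviations correlated above 0.1. They did so for the jaw comparisons (correlations of 0.12 to 0.55 in controls and 0.25 to 0.40 in mutants), while each genotype comparison and the ends had at least 1 pair below it (-0.17 to 0.37, negative in the proximal maxilla alone). The main fit held no replicate term, so its jaw p-values leave this pairing out. With a fixed replicate block the jaws gave 28 members in controls and 7 in mutants, and the effect between jaws 17. A random block gave 28, 10 and 17.

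The members, lists and comparisons were chosen with earlier results of these data known. Foxj1, Deup1, Dynlrb2 and Ccno were always eligible to be named, with up to 12 called members of largest change per comparison, up to 4 genes of each list by moderated statistic, and the 10 genes most alike. Members named to account for counts fall outside that rule. The marker lists were multiciliated regulators, motile and primary cilia, secretory, simple, oral and olfactory epithelium, choroid plexus and neurons. Alternatives were another filter or none, quantile normalization, array weights, the mean of probe sets, no mean-variance trend, only the arrays compared, replicate blocks and arrays left out. Treating every probe set as its own feature, and counting the marker lists without the third mutant maxilla arrays, were added after the values were seen. Python 3.11.15 was used for tables (pandas 2.3.3) and figures (matplotlib 3.10.9).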

Additional observations from a re-analysis of the deposited data

Results flagged for a closer look

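For 16 motile cilia genes the effect of the mutation differed between the jaws by a test of the difference itself (the genotype effect in the maxilla minus that in the mandible, limma adjusted p under 0.05 over all genes tested). The differences were -3.09 log2 units for Dynlrb2, -2.89 for Deup1, -2.39 for Hoatz, -2.25 for Ccno and -2.24 for Foxj1. They were -2.08 for Cfap52, -2.04 for Capsl, -1.97 for Meig1, -1.72 for Rsph4a and -1.56 for Rsph1. They were -1.47 for Cfap206, -1.44 for Lrrc23, -1.37 for Cfap126, -1.30 for Drc3, -0.93 for Ccdc40 and -0.88 for Cfap45. For 13 of the 16 the mandible lay near background in all 4 of its groups. A fall there may have been missed or measured only in part, and the difference may carry the fall in the maxilla alone. Without the third mutant maxilla array of both ends 10 of the 16 were called, and Ccdc40, Cfap206, Cfap45, Lrrc23, Meig1 and Rsph1 were not. The 16 include all 8 genes that passed the filter through control maxilla arrays alone, so their entry into the test favoured this direction. Ccdc40 is the member of the 16 with no genotype call in any single region. Groups of 3 arrays are too small for a test of single arrays that stand apart from their group.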

How the results depend on the processing

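Precision was limited by 3 arrays per group and by the background of the array, below which 21 of the 59 genes stayed in all groups. Main counts of called members were 13 in the distal and 15 in the proximal maxilla, 0 in either end of the mandible, 28 for the jaws in controls, 6 for the jaws in mutants, 0 for the ends of the control maxilla, 16 for the genotype effect between jaws and 0 for that between ends. With the 60th percentile as filter, which left 19 genes, they were 7 and 9 in the maxilla, 14 and 3 for the jaws in controls and mutants and 7 for the effect between jaws. With only the arrays compared, the proximal maxilla had 0, the distal mandible 1 (Cfap36, lower) and the proximal mandible 2 (Ccdc40 and Dnah7a, higher). With no filter the distal mandible had 1 (Cfap97d1, higher). Array weights gave 10 for the jaws in mutants. Without the third mutant maxilla array of both ends there were 5 in the proximal maxilla, 1 in the proximal mandible (Ccdc40), 10 for the jaws in mutants, 1 for the ends (Cfap20dc) and 10 for the effect between jaws. Quantile normalization gave 1 for the ends (Cfap20dc). The cause of these differences was not tested, beyond the smaller number of genes under the stricter filter.

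The replicate block gave 2 for the ends (Cfap20dc and Cfap410) and 16 in the distal and 17 in the proximal maxilla, and as a random replicate block it gave 1 for the ends and 10 for the jaws in mutants; it moved no other count of members by over 1.5 times.

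Leaving out single arrays gave 5 to 14 in the distal maxilla, 5 to 21 in the proximal maxilla, 27 to 28 for the jaws in controls, 3 to 8 for the jaws in mutants, 0 to 12 for the ends, 11 to 18 for the effect between jaws and 0 to 3 for that between ends. The jaws in mutants had 3 without the second mutant distal or the second mutant proximal maxilla array. Shares of all genes called under the alternatives are not given here.

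Of 1560 values of named genes under alternatives, 19 changed sign, all for differences between the ends that were not called. For the ends of the control maxilla, leaving out arrays gave -0.26 to 1.08 for Foxj1, -0.13 to 1.39 for Deup1 and -0.011 to 1.36 for Dynlrb2, each lowest without the second and highest without the third control proximal array. For the genotype effect between ends it gave -0.90 to 0.44 for Foxj1, -1.35 to 0.17 for Deup1, -0.78 to 0.60 for Dynlrb2 and -0.52 to 0.69 for Ccno. Array weights gave 0.012 for Dynlrb2 and -0.0286 for Ccno there, and quantile normalization -0.039 for Ccno. A further 124 values no longer passed the threshold and 4 newly did.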
